A study of Talinum fruticosum with 24 samples.

Results

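The genes described here encode enzymes of the reduction and regeneration phases of the Calvin-Benson cycle and 1 small regulator of it, in leaves of Talinum triangulare, a herb able to switch reversibly from C3 photosynthesis to CAM, crassulacean acid metabolism. They were chosen by Arabidopsis identifier as PRK, GAPA, GAPB, SBPase, FBPase, TKL1, RPE, RPI3, PDTPI and CP12-2. No cutoff on a measured value was used, but earlier results of these data were known. Of the 10 identifiers, 8 were rows of the count table of 22079, and all 8 passed the filter on low counts together with 14057 other genes. GAPA (AT3G26650) and TKL1 (AT3G60750) were not analysed here. Plants, named Talinum fruticosum in the organism field, had 28 d with water and then 12 d of drought before the CAM group was sampled from mature leaves. The reC3 group had in addition 2 d with water again. In each mode leaves were cut at midday (MD, 6 h after lights on as zeitgeber time), at dusk (ED, 12 h), at midnight (MN, 18 h) and before dawn (EN, 24 h), and each of the 8 groups held 3 biological replicates. All groups shared the 12 d of drought and none held leaves that were never droughted, so a level in CAM cannot be told apart from the opposite change on re-watering. Libraries of MD and MN were taken over from older work, whereas those of ED and EN were made for this study. Each difference between modes, and each swing from MD to MN or from ED to EN, therefore stays within 1 set of libraries, and any other comparison of times crosses both sets.

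The Calvin-Benson cycle uses ATP and NADPH from the light reactions to turn CO2 into triose phosphate in the chloroplast. After Rubisco has fixed CO2, glyceraldehyde-3-phosphate dehydrogenase carries out the reduction, and isomerases, epimerases, phosphatases and transketolase rebuild the acceptor ribulose-1,5-bisphosphate, the last step being the phosphoribulokinase reaction. Several of these enzymes are switched on in the light through thioredoxin, and the small protein CP12 binds dehydrogenase and kinase together into an inactive complex in the dark. In CAM the cycle works by day on CO2 released from malate that was stored at night.

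Libraries held 4310225 to 8756145 counts, and levels are given in CPM, counts scaled to a common library size with TMM. Because reads were assigned to Arabidopsis identifiers and transcript lengths of Talinum were not used, levels are compared between samples and never between genes. Fold changes are on the log2 scale with their standard error (SE) from edgeR's quasi-likelihood test, and a gene is called where the Benjamini-Hochberg adjusted p over all 14065 tested genes is under 0.05. TMM factors were lowest in reC3 EN (0.608 to 0.777) and highest in reC3 ED (1.33 to 1.43), so that the changes reported are relative to the bulk of the genes. With library totals alone the median of all genes moved by -0.97 for EN minus ED in reC3 and by 0.29 for CAM minus reC3 at EN. The library reC3 EN replicate 1 stood apart from its partners with a mean correlation across genes of 0.941, against 0.952 to 0.986 in the other 23 libraries. As a check of the mode, the PEP carboxylases PPC1 and PPC2, which fix CO2 at night in CAM, summed to 10898 to 26108 CPM in the CAM libraries and to 642 to 1172 CPM in reC3 at MD, ED and MN, but to 3061 to 14816 CPM in reC3 at EN. At EN they thus overlapped the 12625 to 16315 CPM of CAM and neither passed the test. As a check of the tissue, the 3 light-harvesting genes measured (of 7 listed) summed to 32607 to 99968 CPM at MD over both modes and to 34.7 to 141 CPM at MN. In whole leaves, fewer cells of a type and less RNA per cell cannot be told apart, and beside the mode differences below the summed level of 5 vascular markers was 81.6 to 306 CPM in CAM and 409 to 1221 CPM in reC3, while 3 epidermis markers summed to 211 to 445 and 304 to 784 CPM. The 4 markers of dividing cells summed to 86.6 to 129 CPM in CAM and 79.1 to 189 CPM in reC3. In the average 3 of them (MCM7, MCM2 and CYCB1.1) were lower in CAM and CDKA1 was higher. The replication factors MCM7 and MCM2 were at 0.470 to 0.828 and 0.195 to 1.57 CPM in CAM at MD against 5.49 to 37.6 and 8.55 to 71.8 CPM in reC3, and at EN MCM2 had 0 counts in CAM against 103 in reC3, over 3 libraries each. The 4 guard cell markers measured (of 5 listed) summed to 23.4 to 199.5 CPM in CAM and 29.9 to 116 CPM in reC3, with KAT2 and MYB60 lower in the average, GORK higher and SLAC1 not passing. The part of these cell types in the results was not tested.

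Together the 8 genes took a similar part of the library in both modes at ED and a smaller part in CAM at EN and at MN. Their share of the counts is relative to the library total, without TMM. It was 0.694% to 0.792% in CAM and 0.566% to 0.699% in reC3 at ED. At EN it was 0.819% to 0.932% in CAM against 1.50% to 2.17% in reC3. At MD the shares were 0.990% to 1.30% and 1.19% to 1.53%, which overlapped, and at MN 0.783% to 1.14% and 1.23% to 1.38%, which did not.

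**Figure D1:**
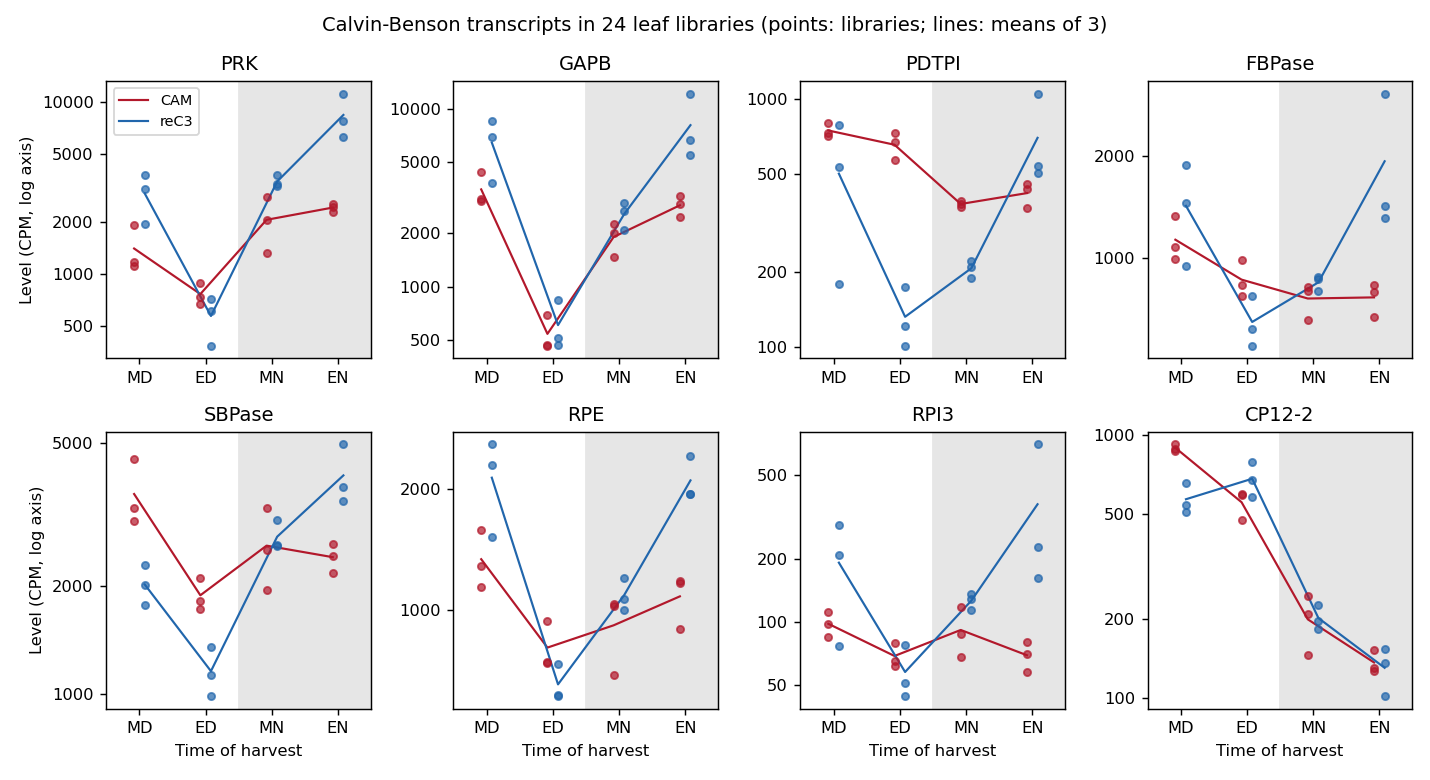
Levels of the 8 genes in each library, in CPM on a log axis, against the time of harvest (MD, ED, MN, EN), with CAM in red, reC3 in blue, lines through the means of 3 libraries and grey behind both night harvests. In reC3 every gene but CP12-2 rises from its ED level to EN, where PRK spans 6306 to 11250.2 CPM, above the 2312 to 2554 CPM of CAM.

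The end of the night was the time at which most of the genes differed between modes. At EN 6 of the 8 were lower in CAM (background 53.3% of all tested genes called, 29.2% lower and 24.1% higher), namely PRK, GAPB, FBPase, SBPase, RPE and RPI3, and the median of the 8 was -1.15 against -0.080 for all tested genes. PRK (AT1G32060), phosphoribulokinase, which makes the CO2 acceptor and serves no other pathway, measured 2312, 2452 and 2554 CPM in CAM replicates 1, 2 and 3 and 11250.2, 6306 and 7799.9 CPM in reC3. Each reC3 library lay well above the highest CAM library. The difference was -1.79 ± 0.312 (adjusted p = 5.78e-05, edgeR), or 3.46-fold lower in CAM. GAPB (AT1G42970), the B subunit of the plastid glyceraldehyde-3-phosphate dehydrogenase, measured 2463, 3239.8 and 2908 CPM in CAM and 12178, 5469 and 6647 CPM in reC3. Again the groups did not overlap, and reC3 replicate 1 was by far the highest. The difference was -1.50 ± 0.327 (adjusted p = 0.000598, edgeR).

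Both phosphatases of regeneration, which make their steps irreversible, were lower in CAM at EN. FBPase (AT3G54050), the chloroplast fructose-1,6-bisphosphatase, measured 669, 796 and 832 CPM in CAM and 3064, 1310.3 and 1426 CPM in reC3, a difference of -1.34 ± 0.275 (adjusted p = 0.00033, edgeR). SBPase (AT3G55800), sedoheptulose-1,7-bisphosphatase, measured 2174, 2422 and 2613 CPM in CAM and 4955, 3450.1 and 3771 CPM in reC3, a difference of -0.76 ± 0.221 (adjusted p = 0.00645, edgeR). For neither did the groups overlap, and reC3 replicate 1 was again the highest library. The enzymes that interconvert pentose phosphates followed. RPE (AT5G61410), the epimerase of ribulose-5-phosphate, measured 896, 1163 and 1183 CPM in CAM and 2417, 1937 and 1935 CPM in reC3, a difference of -0.96 ± 0.217 (adjusted p = 0.000845, edgeR) without overlap. RPI3 (AT3G04790), the isomerase that makes ribulose-5-phosphate from ribose-5-phosphate, measured 58.0, 80.6 and 70.2 CPM in CAM and 702, 163 and 227 CPM in reC3. Its reC3 libraries were spread the most, with replicate 1 far above the others, and all were above CAM. RPI3 differed by -2.39 ± 0.455 (adjusted p = 0.000209, edgeR), the largest of the 8, and by -1.49 without reC3 EN replicate 1 (adjusted p = 0.00225, edgeR). In that fit the 6 genes were still lower in CAM, with PRK at -1.53, SBPase at -0.59, GAPB at -1.08, FBPase at -0.84 and RPE at -0.84.

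The remaining pair did not pass at EN. PDTPI (AT2G21170), the plastid triose-phosphate isomerase, measured 362, 435 and 454 CPM in CAM and 1052, 502 and 539 CPM in reC3, a difference of -0.74 ± 0.343 (adjusted p = 0.0738, edgeR), although the groups did not overlap. Without reC3 EN replicate 1, which stands apart, PDTPI was at -0.32 (adjusted p = 0.464, edgeR). PDTPI passed in 3 fits with 1 library less, with an adjusted p of 0.0372 without reC3 EN replicate 2 (-0.93), 0.0418 without reC3 MD replicate 1 (-0.74) and 0.0121 without reC3 MD replicate 3 (-0.74, edgeR). CP12-2 (AT3G62410), of the small proteins that hold GAPDH and PRK inactive in the dark, measured 129.95, 127 and 153 CPM in CAM and 154, 135 and 102 CPM in reC3, overlapping groups with a difference of 0.067 ± 0.193 (adjusted p = 0.788, edgeR). The 3 light-harvesting genes, which moved alongside, summed to 948 to 1103 CPM in CAM at EN and 3018 to 16881 CPM in reC3, and their link to the 6 differences was not tested.

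**Figure D2:**
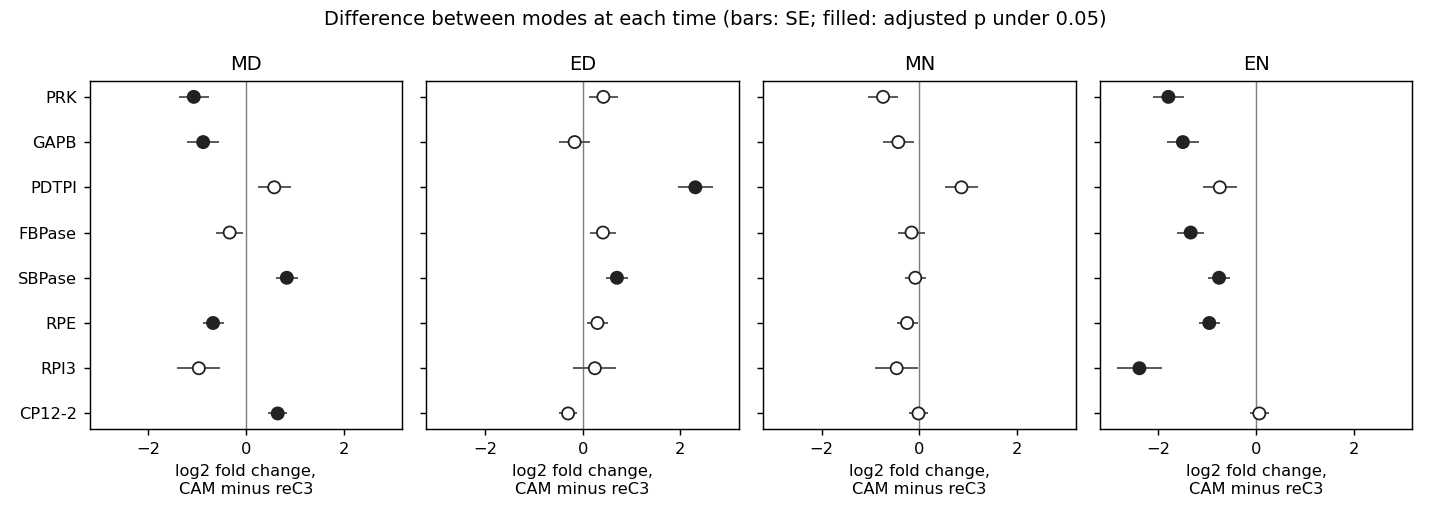
Log2 fold change, CAM minus reC3, of the 8 genes at MD, ED, MN and EN, with SE as bars and filled points for an adjusted p under 0.05. Filled points lie left of 0 for 6 genes at EN, on both sides of 0 at MD and right of 0 for PDTPI (2.31) and SBPase (0.70) at ED.

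At the end of the day 2 of the 8 genes were higher in CAM and 0 lower (background 45.4%, 21.5% higher and 23.9% lower). The share called was below the background, and the share higher was near it. The median of the 8 was 0.36 against 0.02 for all tested genes. PDTPI measured 669.97, 727 and 566 CPM in CAM and 174, 121 and 101 CPM in reC3. The lowest CAM library stood far above the highest reC3 library, and the difference of 2.31 ± 0.358 (adjusted p = 2.45e-05, edgeR) made PDTPI 4.95-fold higher in CAM. SBPase measured 2107, 1814 and 1726 CPM in CAM and 1355, 986 and 1131 CPM in reC3, without overlap, a difference of 0.70 ± 0.221 (adjusted p = 0.013, edgeR). SBPase was at 0.61 without CAM ED replicate 1 (adjusted p = 0.054, edgeR) and at 0.60 without reC3 ED replicate 2 (adjusted p = 0.0657, edgeR). The other 6 did not pass, from -0.30 ± 0.191 for CP12-2 to 0.42 ± 0.304 for PRK. CP12-2 passed with library totals alone (-0.53, adjusted p = 0.0273, edgeR). FBPase passed without both reC3 EN replicate 1 and reC3 MD replicate 3 (0.42, adjusted p = 0.0403, edgeR), a fit added after seeing the data. PRK measured 885, 737 and 671 CPM in CAM and 719, 383 and 606 CPM in reC3, and the groups overlapped.

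At midday 5 of the 8 genes differed, 2 higher in CAM and 3 lower (background 44.0%, 22.7% higher and 21.3% lower), with a median of -0.50 against 0.08 for all tested genes. SBPase and CP12-2 were higher. SBPase measured 3287, 4497 and 3023 CPM in CAM and 2281, 2007 and 1765 CPM in reC3, a difference of 0.84 ± 0.222 (adjusted p = 0.00396, edgeR). CP12-2 measured 873, 923 and 889 CPM in CAM and 544, 656 and 511 CPM in reC3, a difference of 0.65 ± 0.191 (adjusted p = 0.00841, edgeR). In both, every CAM library was above every reC3 library. PRK, at 1179, 1929.7 and 1115 CPM in CAM and 3775, 3111 and 1959 CPM in reC3, was lower in CAM, with a narrow gap between the groups and a difference of -1.07 ± 0.306 (adjusted p = 0.00714, edgeR). GAPB measured 3124, 4413 and 3040.2 CPM in CAM and 8582, 6967 and 3847 CPM in reC3, and RPE 1288, 1582 and 1139 CPM and 2577, 2294 and 1517 CPM. In both, the groups overlapped through CAM replicate 2 and reC3 replicate 3. GAPB differed by -0.87 ± 0.323 (adjusted p = 0.0319, edgeR) and RPE by -0.67 ± 0.216 (adjusted p = 0.0148, edgeR).

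Both of these midday calls were lost in 4 fits with 1 library less. Without CAM MD replicate 1 or 3 GAPB was at -0.79 and -0.78 (adjusted p = 0.104 and 0.106, edgeR), and without reC3 MD replicate 1 or 2 at -0.61 and -0.81 (0.157 and 0.0831). For RPE the same 4 fits gave -0.64, -0.57, -0.51 and -0.61 (adjusted p = 0.051, 0.0734, 0.0816 and 0.0532, edgeR). RPI3 measured 85.4, 112 and 97.7 CPM in CAM and 289.7, 209 and 76.9 CPM in reC3 and did not pass, at -0.96 ± 0.438 (adjusted p = 0.0819, edgeR). Its reC3 replicate 3 lay below all CAM libraries and the other reC3 libraries above them. RPI3 passed without reC3 MD replicate 3 (-1.34, adjusted p = 0.0131, edgeR), without reC3 EN replicate 1 (-0.96, 0.0213) and without reC3 EN replicate 2 (-0.96, 0.0498). It also passed with DESeq2 (-1.02, adjusted p = 0.042, DESeq2) and with library totals alone (-0.87, adjusted p = 0.0483, edgeR). Without both reC3 EN replicate 1 and reC3 MD replicate 3 it was at -1.34 (adjusted p = 7.4e-05, edgeR). PDTPI, at 799, 710.3 and 731 CPM in CAM and 789.5, 532 and 179 CPM in reC3, had the widest reC3 spread of the 8 and was at 0.58 ± 0.342, or at 1.07 without reC3 MD replicate 1 (adjusted p = 0.0161, edgeR). PDTPI also passed with library totals alone (0.69, adjusted p = 0.0371, edgeR). FBPase was at -0.33 ± 0.271, with overlapping groups of 1081, 1329 and 991 CPM in CAM and 1879, 1457 and 948 CPM in reC3. FBPase passed (-0.55, adjusted p = 0.0169, edgeR) in the fit without both reC3 EN replicate 1 and reC3 MD replicate 3. That fit was added after seeing the data, and it drops the lowest reC3 library of FBPase at MD.

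In the middle of the night the edgeR fit to all 24 libraries called 0 of the 8 genes (background 38.6%, 18.1% higher and 20.5% lower). In that fit 2 had an unadjusted p under 0.05, and DESeq2 called 2. These were PRK and PDTPI, in opposite directions. PRK measured 2074, 2814 and 1321 CPM in CAM and 3794, 3256 and 3332 CPM in reC3, a difference of -0.74 ± 0.304 (adjusted p = 0.0583, edgeR) between groups that did not overlap. PDTPI measured 388, 367 and 376 CPM in CAM and 222, 190.3 and 210.4 CPM in reC3, a difference of 0.86 ± 0.344 (adjusted p = 0.0521, edgeR), with the replicates of each mode close together and the groups apart. PRK passed without CAM MD replicate 2 (adjusted p = 0.0488, edgeR), reC3 MD replicate 3 (0.0428), CAM MN replicate 2 (0.0252) or reC3 EN replicate 1 (0.0373). PDTPI passed, at an adjusted p of 0.00642 to 0.0488 (edgeR), without reC3 MD replicate 1 or 3, reC3 ED replicate 1, or reC3 EN replicate 1 or 2. With the MN libraries alone PDTPI (adjusted p = 6.51e-05, edgeR), PRK (0.0195) and RPI3 (-0.47, 0.0422) passed. The other 6 lay between -0.46 ± 0.434 for RPI3 and -0.017 ± 0.191 for CP12-2, where the CAM libraries of 243, 208 and 146 CPM spanned those of reC3 at 195, 226 and 183 CPM.

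In the average of the 4 times 5 of the 8 genes were lower in CAM and 1 was higher (background 64.8%, 32.5% lower and 32.3% higher), and 3 of the lower ones did not pass without EN. PRK (-0.79 ± 0.152), GAPB (-0.74 ± 0.161), RPI3 (-0.89 ± 0.219), RPE (-0.39 ± 0.108) and FBPase (-0.35 ± 0.135) were lower, PDTPI (0.75 ± 0.171) was higher, and SBPase (0.17 ± 0.110) and CP12-2 (0.10 ± 0.0956) did not pass. Averaged over MD, ED and MN alone, RPI3 was at -0.39 (adjusted p = 0.185, edgeR), RPE at -0.21 (0.156) and FBPase at -0.025 (0.901), while SBPase was higher in CAM by 0.49 (0.00234). FBPase also lost its call without reC3 MD replicate 1 (-0.29, adjusted p = 0.0603, edgeR), reC3 ED replicate 1 (-0.31, 0.0534) or reC3 EN replicate 1 (-0.23, 0.0598). The interaction, which asks whether the difference between modes itself changes with time, was called for 7 of the 8 genes (background 46.8%). Its adjusted p ran from 0.000457 for PDTPI to 0.0355 for CP12-2 (edgeR), and was 0.0764 for GAPB, which did not pass. GAPB passed without reC3 MD replicate 3 (adjusted p = 0.0334, edgeR), reC3 ED replicate 1 (0.0333) or reC3 EN replicate 2 (0.0323). It also passed with DESeq2 (adjusted p = 0.0408, DESeq2) and without both reC3 EN replicate 1 and reC3 MD replicate 3 (0.0484, edgeR). CP12-2 missed the threshold, at 0.0516 to 0.091 (adjusted p, edgeR), in 9 of 24 fits with 1 library less, namely without any 1 of CAM MD replicates 1, 2 and 3, CAM ED replicate 2, CAM MN replicate 2, reC3 MD replicates 1 and 3, and reC3 ED replicates 2 and 3.

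The swing across the night separated the modes most clearly. From ED to EN within reC3, 7 of the 8 genes rose and CP12-2 fell (background 57.9%, 29.1% higher and 28.8% lower). Within CAM, PRK and GAPB rose, CP12-2 fell and the other 5 did not pass (background 63.7%, 31.5% higher and 32.2% lower). PRK rose by 3.89 ± 0.340 in reC3 and by 1.67 ± 0.311 in CAM, or 14.8-fold and 3.19-fold. GAPB rose by 3.73 ± 0.357 and 2.40 ± 0.337, or 13.3-fold and 5.28-fold. In all 4 of these comparisons the EN libraries lay above the ED libraries without overlap. RPI3 rose by 2.65 ± 0.460 in reC3 (1.75 without reC3 EN replicate 1) and was at 0.012 ± 0.438 in CAM, where the ED libraries at 80.0, 62.2 and 65.1 CPM and the EN libraries overlapped. PDTPI rose by 2.40 ± 0.359 in reC3 and was at -0.65 ± 0.342 in CAM (adjusted p = 0.102, edgeR), with the CAM libraries at EN below those at ED. The CAM value of PDTPI passed without reC3 MD replicate 3 (-0.65, adjusted p = 0.0212, edgeR) and with the compared libraries alone (-0.66, 0.00301). It also passed without both reC3 EN replicate 1 and reC3 MD replicate 3 (-0.65, 0.0022). SBPase rose by 1.81 ± 0.227 in reC3 against 0.35 ± 0.220 in CAM, RPE by 1.68 ± 0.221 against 0.42 ± 0.216 and FBPase by 1.58 ± 0.277 against -0.17 ± 0.270, and the CAM values did not pass. RPE in CAM did pass with DESeq2 (0.47, adjusted p = 0.0339, DESeq2) and without both of those libraries (0.42, adjusted p = 0.0396, edgeR).

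Tested directly, the change from ED to EN was smaller in CAM than in reC3, on the log2 scale, for 7 of the 8 genes (background 36.2%, 19.0% lower and 17.2% higher), and the median of the 8 differences was -1.61 against -0.05 for all tested genes. The difference in swing was -3.05 ± 0.493 (adjusted p = 8.6e-05, edgeR) for PDTPI, -2.64 ± 0.627 (adjusted p = 0.0028, edgeR) for RPI3 and -2.22 ± 0.434 (adjusted p = 0.00047, edgeR) for PRK. It was -1.75 ± 0.385 for FBPase, -1.46 ± 0.313 for SBPase, -1.26 ± 0.305 for RPE and -1.33 ± 0.455 for GAPB. Without reC3 EN replicate 1 RPI3 was at -1.74 and stayed past the threshold. GAPB lost its call without CAM ED replicate 1 (-1.12, adjusted p = 0.075, edgeR), CAM EN replicate 1 (-1.24, 0.0628), reC3 ED replicate 2 (-1.18, 0.0707), reC3 ED replicate 3 (-1.22, 0.0645) or reC3 EN replicate 1 (-0.92, 0.0948), and with library totals alone (-0.77, 0.0749). With library totals alone the rises in reC3 were smaller, from 0.55 for FBPase to 2.90 for PRK, and all 7 still passed. Under that scaling FBPase (-0.62) and PDTPI (-1.10) fell in CAM from ED to EN, and the swing of CP12-2 differed between modes (0.90, adjusted p = 0.0101, edgeR), where TMM gave 0.36 ± 0.271.

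**Figure D3:**
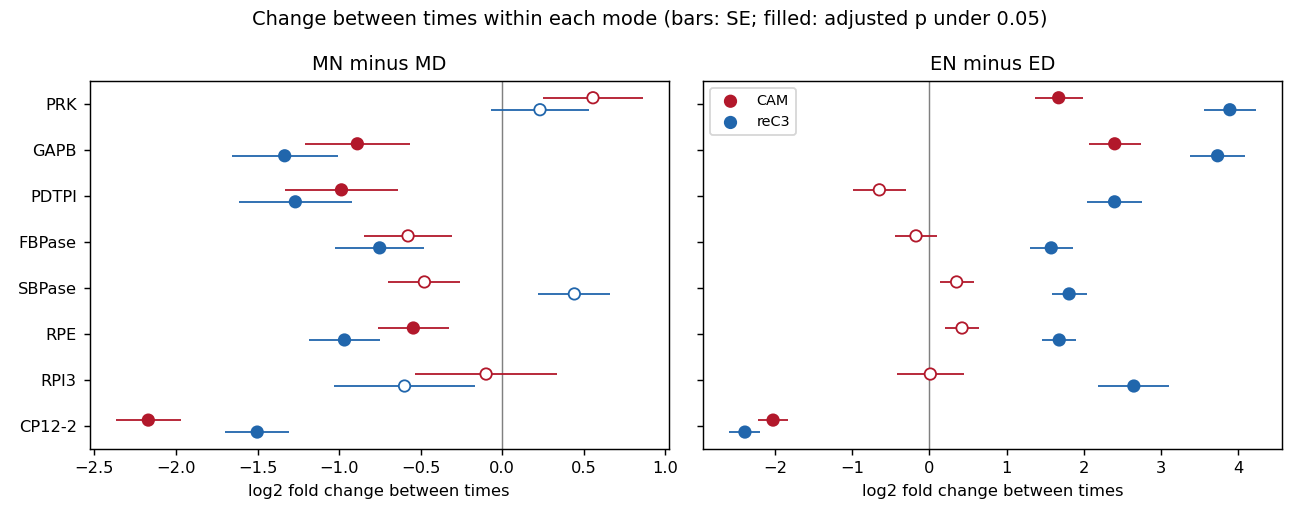
Log2 fold change between times within CAM (red) and reC3 (blue) for the 8 genes, MN minus MD in the first panel and EN minus ED in the second, with SE as bars and filled points for an adjusted p under 0.05. In the second panel 7 blue points lie between 1.58 and 3.89, each to the right of its red point, and CP12-2 is left of 0 in both modes.

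By midnight several of the genes stood below their midday level. From MD to MN 5 of the 8 genes fell in reC3 (background 43.4%, 21.7% lower and 21.7% higher) and 4 in CAM (background 52.0%, 26.5% lower and 25.6% higher). CP12-2 fell in both (-1.50 ± 0.195 in reC3 and -2.17 ± 0.199 in CAM), and so did GAPB (-1.33 ± 0.326 and -0.89 ± 0.323), RPE (-0.97 ± 0.217 and -0.55 ± 0.216) and PDTPI (-1.27 ± 0.347 and -0.99 ± 0.344). FBPase fell in reC3 (-0.75 ± 0.272) and was at -0.58 ± 0.271 in CAM. RPE in CAM and FBPase in reC3 lost their calls with library totals alone (-0.23 and -0.30), where PRK instead rose in both modes (0.87 in CAM and 0.68 in reC3) and SBPase in reC3 (0.85). Several of the falls lost their call in fits with 1 library less. The adjusted p (edgeR) in CAM was 0.0514 to 0.113 for GAPB without CAM MD replicate 2 or CAM MN replicate 1 or 3. It was 0.0637 to 0.19 for RPE without CAM MD replicate 1 or 2 or CAM MN replicate 2 or 3, and 0.0511 to 0.0789 for PDTPI without CAM MD replicate 1 or CAM MN replicate 2 or 3. In reC3 it was 0.0618 to 0.172 for FBPase without reC3 MD replicate 1 or 2 or any 1 of the reC3 MN replicates, and 0.0675 for PDTPI without reC3 MD replicate 1. In CAM, FBPase passed without reC3 EN replicate 1 (0.0198), SBPase without CAM MN replicate 2 (0.0433), and PRK without CAM MD replicate 2 (0.04) or CAM MN replicate 3 (0.0421). With TMM, PRK was at 0.56 ± 0.304 in CAM and 0.23 ± 0.303 in reC3. The swing from MD to MN differed between modes for 1 gene, SBPase (background 22.3%, 10.2% higher and 12.1% lower), which was at -0.48 ± 0.220 in CAM and 0.44 ± 0.220 in reC3. That difference of -0.92 ± 0.312 (adjusted p = 0.0373, edgeR) lost its call under RLE scaling (-0.86, adjusted p = 0.053, edgeR), in the fit to the 12 libraries compared (0.0589) and in 8 of 24 fits with 1 library less, at 0.0527 to 0.114 (adjusted p, edgeR). Those libraries were CAM MD replicate 2, CAM MN replicates 1 and 3, reC3 MD replicates 2 and 3, and reC3 MN replicates 1, 2 and 3. Without CAM MN replicate 1 the swing of CP12-2 also differed between modes (adjusted p = 0.0407, edgeR).

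CP12-2 had both day harvests above both night harvests, with no overlap between them, in each mode. Among the other 7 genes PDTPI did so too, in CAM. In CAM CP12-2 was at 895 ± 25.5 CPM at MD (mean ± SD, n = 3 libraries here and below), 555 ± 67.9 at ED, 199 ± 49.5 at MN and 136 ± 14.1 at EN, with MN and EN overlapping. In reC3 it was highest at ED, at 682 ± 106 CPM, which overlapped MD at 570.3 ± 75.7, and lowest at EN, at 130.2 ± 26.4. PRK was lowest at ED and highest at EN in both modes, in reC3 the exact reverse of CP12-2. Mean levels in reC3 stood in the order ED (569 ± 171 CPM), MD (2949 ± 919), MN (3460.5 ± 291) and EN (8452 ± 2536), MD and MN overlapping and the other neighbours not. In CAM the means of PRK were 764 ± 109.6 at ED, 1408 ± 453 at MD, 2069.6 ± 746 at MN and 2439 ± 121 at EN, and only ED was free of overlap with its neighbour. The highest group mean of PRK was 14.8 times the lowest in reC3 and 3.19 times in CAM. The same ratio was 13.3 and 6.49 for GAPB, 6.28 and 1.42 for RPI3, 5.28 and 1.98 for PDTPI, 3.51 and 1.91 for SBPase, 3.26 and 1.66 for RPE and 2.99 and 1.49 for FBPase, while for CP12-2 it was 5.24 in reC3 and 6.56 in CAM. These orders cross both sets of libraries and were not tested.

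The lowest level in reC3 fell at ED for all but CP12-2, and in CAM for PRK, GAPB, SBPase, RPE and RPI3. RPI3 in CAM showed little order, since its means of 98.3 ± 13.2 CPM at MD, 91.9 ± 25.2 at MN, 69.6 ± 11.3 at EN and 69.1 ± 9.55 at ED all overlapped with their neighbours. PDTPI and FBPase in CAM were highest at MD, at 747 ± 46.3 and 1134 ± 175 CPM, and lowest at MN, at 377 ± 10.3 and 759.6 ± 91.1 CPM. In reC3 both were lowest at ED, at 132 ± 37.5 and 648 ± 115 CPM.

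Over the 8 group means of log2 CPM, GAPB (Pearson r = 0.88), RPI3 (0.87) and RPE (0.80) had patterns most like PRK among the other 7 genes, and CP12-2 had a negative r (-0.72), all given as descriptions. Among 8977 further genes with a mean of at least 10 CPM, the 5 most alike were AT5G11330, an FAD/NAD(P)-binding oxidoreductase (r = 0.98), the fatty acid desaturase AT4G30950 (0.97), AT3G47070 (0.97), the plasma membrane intrinsic protein AT2G37170 (0.97) and the dicarboxylate transporter AT5G64280 (0.96). These points share their libraries and the time of harvest.

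Other genes of the cycle were set beside the 8. Of the plastid genes listed apart from them, 9 of 11 were in the table and 8 were tested: at EN 6 were lower in CAM (background 29.2%), with a median of -0.84, and at ED 6 were higher (background 21.5%), with a median of 0.95, beside -0.08 and 0.02 for all tested genes. The aldolase FBA1, which condenses triose phosphates to fructose-1,6-bisphosphate, was at 1.64 at ED and -0.63 at EN, and FBA1 was the only one of them to pass in the average (0.32 ± 0.127). The mean level of FBA1 over all times was, however, 11950.5 CPM in CAM and 13200.8 CPM in reC3. Of the Rubisco small subunits and activase 3 of 5 were tested. RBCS1A (-1.45) and RBCS3B (-1.67) were lower in CAM at EN, the activase RCA was higher at ED (2.09) and lower at MD (-1.21), and RBCS3B was also lower in the average (-0.43 ± 0.175). From ED to EN in reC3 all 3 rose, by 2.11 to 5.21 (background 57.9%, 29.1% higher). GAPA2 (-1.40) and TKL2 (-1.18), isoforms of the enzymes whose main genes were not analysed here, were lower in CAM at EN and higher at ED (0.95 and 1.24). CP12-1, the closest relative of CP12-2 among them, was higher at MD (0.67), as CP12-2 was. Like CP12-2, CP12-1 fell from MD to MN (-2.25 in CAM and -1.47 in reC3) and from ED to EN (-2.08 and -2.35). How reads were shared among CP12 genes, or between small subunit genes, is uncertain.

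Of 17 isoforms of the cytosol and second isoforms, 14 were tested. At MD 9 were higher and 1 lower in CAM (background 22.7% and 21.3%, median 0.75), and at EN 8 were lower (background 29.2%, median -0.92). At ED 5 were higher and 1 lower (background 45.4%, median 0.44), a share near the background, and at MN 2 and 1 (background 38.6%, median -0.08), a share below it. In the average the aldolases FBA6 (0.49 ± 0.0678), FBA7 (0.70 ± 0.107) and FBA4 (0.57 ± 0.0905) were higher in CAM. FBA7 was at 1.77 at MD, 2.23 at ED and -0.11 at MN, and its value at EN was negative. Its mean level over all times was 215 CPM in CAM and 214 CPM in reC3. GAPCP2, a dehydrogenase of plastid glycolysis, was lower in the average, as it was at MD (-1.33), ED (-0.94), MN (-0.82) and EN (-0.91). Of the thioredoxin system, which carries the light signal to the cycle's enzymes, 7 of 10 were tested. At EN 5 were lower in CAM (background 29.2%), with a median of -1.20 against -0.08 for all tested genes. In the average 5 were lower (background 32.5%), among them FTRA2 (-0.63 ± 0.120) and FTRB (-0.36 ± 0.0983), subunits of ferredoxin-thioredoxin reductase, and the thioredoxins TRXM4 (-0.54 ± 0.110) and TRXF1 (-0.34 ± 0.0844). At EN TRXM4 (-1.31), FTRA2 (-1.48) and FTRB (-0.92) passed and TRXF1 (-0.38) did not. TRXF1 rose from ED to EN by 3.66 in CAM and 3.59 in reC3, a difference in swing of 0.075 ± 0.239 (adjusted p = 0.834, edgeR).

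**Figure D4:**
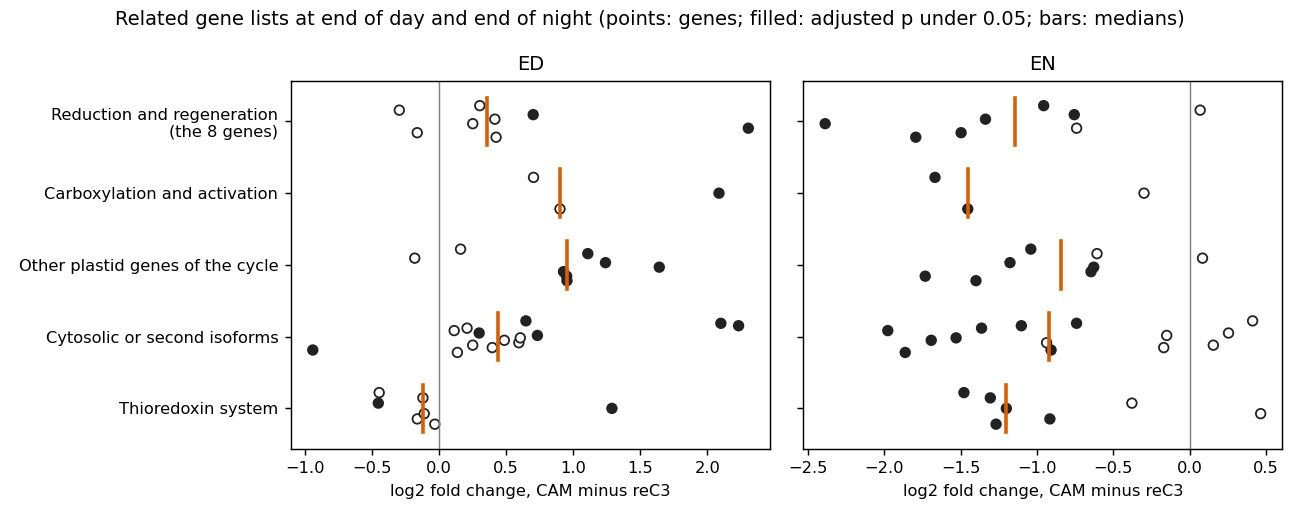
Log2 fold change, CAM minus reC3, at ED and at EN for the 8 genes and the other lists of the cycle, with 1 point per gene, filled for an adjusted p under 0.05, and the list median as a bar. Medians at EN run from -1.45 for carboxylation and activation to -0.84 for the other plastid genes, and at ED from -0.12 for the thioredoxin system to 0.95 for the other plastid genes.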

How the data were processed

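The 1 deposited table holds unscaled read counts under Arabidopsis identifiers, per the file headers. CASAVA 1.8.2 and TAIR10 are named in the submitters' processing notes, while for alignment and counting the tool is not given in the sources used here. The other 40 value columns were not used. Counts were analysed with edgeR 4.0.16 in R 4.3.3: filterByExpr by group kept 14065 genes, libraries were scaled with TMM, and the robust quasi-likelihood model was fitted to all 24 libraries with 1 mean per group (common biological coefficient of variation 0.196). Each SE is the fitted log2 change divided by the root of its F value. Log2 CPM for the likeness to PRK used a prior count of 2. The test was checked on simulated data. P-values rest on 1 spread per gene, estimated between the 3 biological replicates of all 8 groups together and moderated across genes. Leaving out a library of 1 group can therefore change the adjusted p of a comparison between other groups. Replicates differed by more than sampling noise, with a chi-square of 3.93 to 129.9 per degree of freedom.

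All 8 genes are named. From each other list up to 4 members were named by the smallest adjusted p in the average, at 10 CPM or more in the higher mode, and others were chosen after their values were seen. The genes and lists were chosen with earlier results of these data known. Alternatives were DESeq2 1.42.0, RLE scaling, library totals alone, no filter, a block for the replicate number, a stricter threshold (2-fold and adjusted p under 0.01), the compared libraries alone, each library left out, isoforms summed, and the average without EN. Leaving out reC3 EN replicate 1 with reC3 MD replicate 3 was added after seeing the data.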

Additional observations from a re-analysis of the deposited data

Results flagged for a closer look

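Each difference here was flagged because the contrast between modes differed between times, or the contrast between times differed between modes, by an interaction test (adjusted p, edgeR). Over all 4 times this held for PDTPI (0.000457), SBPase (0.00082), PRK (0.00222), FBPase (0.00609), RPE (0.00932), RPI3 (0.0113) and CP12-2 (0.0355). The range of the 4 mode differences was widest for PDTPI, from -0.74 at EN to 2.31 at ED, and narrowest among these 7 for CP12-2, from -0.30 at ED to 0.65 at MD.

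For the swing from ED to EN the modes differed in PDTPI (8.6e-05), PRK (0.00047), SBPase (0.00103), FBPase (0.00126), RPE (0.00278), RPI3 (0.0028) and GAPB (0.0259). For the swing from MD to MN they differed in SBPase (0.0373). The groups hold 3 libraries each, and no rule on outlying single libraries was used to flag results here.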

How the results depend on the processing

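Of the 8 genes, the counts called were 6 to 7 at EN, 5 to 6 in the average, 6 to 8 for the interaction, 8 for EN minus ED in reC3, 3 to 4 for EN minus ED in CAM and 6 to 7 for the mode difference in that swing when each library was left out in turn. The same fits gave 3 to 6 at MD, 1 to 2 at ED, 0 to 2 at MN, 2 to 5 for MN minus MD in CAM, 3 to 5 in reC3 and 0 to 1 for the mode difference in MN minus MD. At MN 2 genes were called with DESeq2, with the replicate block, with library totals alone and without both reC3 EN replicate 1 and reC3 MD replicate 3, and 3 with the compared libraries alone. EN minus ED in CAM had 5 with library totals alone and 5 without both libraries. The mode difference in MN minus MD had 0 under RLE scaling and with the compared libraries alone, and 2 without both libraries. At an adjusted p under 0.01 with a 2-fold change 4 genes passed at EN (RPE and SBPase did not), 5 for the interaction (RPI3 and CP12-2 did not) and 6 for the mode difference in EN minus ED (GAPB did not). By that threshold 1 passed at MD, 1 at ED, 1 for MN minus MD in CAM and 3 in reC3, and 0 in the average and for the mode difference in MN minus MD. For these other settings the share of all tested genes called is not given. Whether the 8 genes kept their calls more often than other genes was therefore not tested. Over all comparisons and genes, leaving out both libraries gained 12 calls and lost 0, library totals alone gained 11 and lost 3, DESeq2 gained 6 and lost 0, and the compared libraries alone gained 5 and lost 3. The cause of these changes was not tested. No called value changed sign under any setting tried. Summing isoforms ended 1 call, the interaction of CP12-2 (adjusted p = 0.0651, edgeR), and RLE scaling also ended it (0.0537). Replicate numbers were not taken as pairs in the fit to all libraries. Deviations of same-numbered libraries correlated at 0.023 on average (84 pairs, 16 of them over 0.1, from -0.20 to 0.37). Those of other-numbered libraries correlated at -0.012 (168 pairs, 23 of them over 0.1, from -0.44 to 0.42). The block moved the count of calls at MN from 0 to 2 and left the count of each other comparison as it was. The fewest counts behind a group were 1326 for RPI3 in CAM at EN.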
